A study of Saccharomyces cerevisiae with 30 samples.

Results

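Convergent intergenic regions are the stretches of DNA between neighbouring genes that point at each other, so that both genes end there. They were taken here as gaps of 100 bp to under 1500 bp between neighbouring, non-overlapping genes, with the left gene on the Watson strand, the right gene on the Crick strand, and the gap more than 20 kb from the outermost feature of its chromosome. This rule used gene coordinates and names only, and it gave 985 convergent regions of 5355 intergenic regions within the same limits. They covered 275.773 kb, with a median length of 236 bp, quartiles of 159 and 333 bp, and a longest of 1484 bp. Of the other regions, 1011 were divergent (both genes start there, 516.184 kb), 1934 were tandem (both genes point the same way, 843.02 kb), 940 were bounded by overlapping genes and 485 by a feature with no strand in its name. A further 175 convergent gaps were left out for their length and 40 for their distance to a chromosome end.

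The insertions are those of 28 calling card libraries, 1 for each of 28 transcription factors tied to filamentous growth, in budding yeast of the strain Σ1278b. In this method a factor fused to Sir4 directs the retrotransposon Ty5 to DNA near the place where the factor sits, and the insertion stays as a mark. All 28 cultures were grown in synthetic medium low in ammonium and induced in 2% galactose. There was no library of a free Sir4 or of an unfused Ty5 among those analysed here, and no factor had a second library, so no value has a spread between replicates. The flanking genes' RNA was measured in a single library for each of the nitrogen-starved and rich media. Both RNA libraries carry the calling card protocol in their labels, so how their cells were grown and their RNA prepared is not known. Among flanking genes, chosen after their values were seen, the galactose transporter gene GAL2 (of GAL2/SRL2) had 1597 RPKM in nitrogen-starved and 5.22 RPKM in rich medium, and the glucose transporter gene HXT1 (of AHT1/HXT1) 10.8 RPKM in nitrogen-starved and 314 RPKM in rich medium. Nitrogen supply and any other difference between the media, such as the sugar, cannot be told apart in the RPKM values below. The libraries held 2836 (Rtg1) to 41619 (Phd1) insertions, with a median of 12128.5 and a total of 401017, and intervals below cover counting error only.

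A convergent region holds the terminators and the ends of both transcripts, but the promoter of neither flanking gene. Yeast activators and repressors mostly act from sites shortly upstream of a gene's start, which lie in divergent and tandem regions. Filamentous growth is driven by Flo8 and its partners Mss11 and Mfg1, by Ste12 with its partner Tec1, and by Phd1 and Sok2, among others.

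The convergent regions were sparsely hit. They held 11239 insertions, 2.80% of all. Of the 985 regions, 113 (11.5%) had no insertion in any library, 150 had 1, and 508 had at most 3, with a median of 3. Among divergent regions 9 (0.89%) and among tandem regions 12 (0.62%) had none, and the median was 21 insertions in divergent and 19 in tandem regions, which were also longer. The longest convergent regions with no insertion were PUL4/YNR064C (369 bp), ARP2/MPS1 (359 bp, between an actin-related protein and a spindle checkpoint kinase) and HXK2/RTG2 (319 bp, between a hexokinase and a regulator of retrograde signalling). A count of 0 over all libraries allows up to 3 insertions, or 0.000748% of the total.

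Density is given as insertions per kb of DNA and per 1000 insertions of the library. Convergent density was 0.0469 in the lowest library (Sfl1), 0.0816 in the median library and 0.246 in the highest (Flo8). In divergent regions the lowest, median and highest were 0.127, 0.251 and 0.340, in tandem regions 0.161, 0.266 and 0.478, and in gene bodies 0.0150, 0.0320 and 0.0425. The convergent density was below the divergent density in 25 libraries and above it in 3, those of Flo8 (1.25-fold), Mfg1 (1.19-fold) and Mss11 (1.02-fold). It was above the tandem density in 1 library, that of Flo8 (1.01-fold), and above the gene body density in 28 of 28. Without STI1/CIN5, the densest convergent region, it was above the divergent density in 0 libraries and above the tandem density in 0. Both counts were also 0 with each position counted once per library.

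The mean log2 ratio of convergent over divergent density was -1.44 ± 0.70 (SD, n = 28 libraries), and the median ratio was 0.321. The mean log2 ratio of convergent over tandem density was -1.74 ± 0.80, with a median ratio of 0.306. Against gene bodies, convergent density had a mean log2 ratio of 1.48 ± 0.62 and a median ratio of 2.46, with a range over libraries of 1.58 to 8.59. Each of these 3 ratios had an adjusted p of 1.5e-05 in a two-sided sign-flip permutation test over the 28 libraries, adjusted over 6 tests, where the smallest raw p that the permutations can give is 1e-05. The libraries are of different factors, so the test asks whether a difference is shared by them. The difference from gene bodies shrank to a mean log2 ratio of 0.83 without the 10 densest convergent regions, positive in 25 of 28 libraries. No gene bodies were left out in that comparison.

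**Figure D1:**
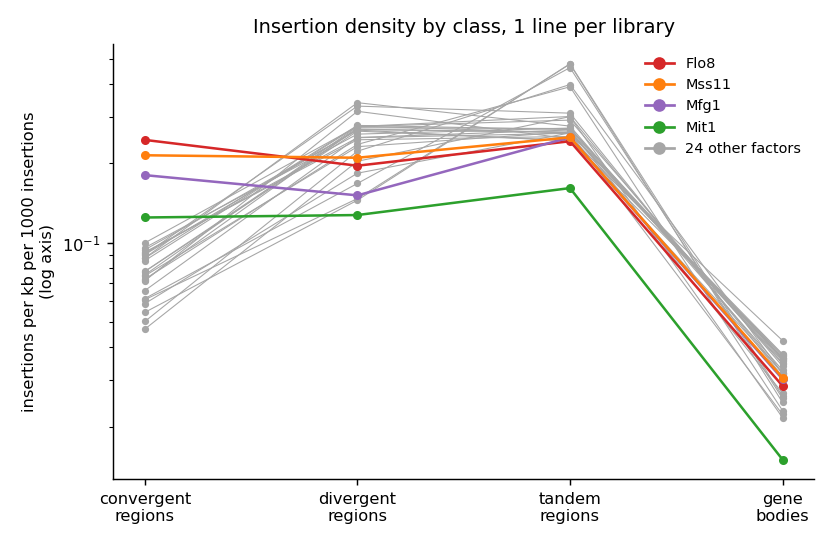
Insertions per kb and per 1000 insertions of the library (log axis) in convergent regions, divergent regions, tandem regions and gene bodies, with 1 line per library and no replicates. In the libraries of Flo8, Mss11 and Mfg1 the convergent regions reached or passed the divergent ones (1.25-fold, 1.02-fold and 1.19-fold). The 24 grey libraries stayed between 0.0469 and 0.0998 in convergent regions. Without the STI1/CIN5 region, which is included here, convergent density was above divergent density in 0 libraries.

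Single regions gave the same order as the sums. With every library weighted equally, the mean density of a convergent region had a median of 0.0354 and quartiles of 0.0147 and 0.0674, against a median of 0.124 and quartiles of 0.0736 and 0.218 in divergent regions, and a median of 0.133 and quartiles of 0.0742 and 0.231 in tandem regions. The top of the convergent class was steep. Its 10 densest regions held 45.1% of its insertions, against 19.2% for the 10 densest divergent and 23.5% for the 10 densest tandem regions. At the 99th percentile a convergent region had a density of 0.463, against 1.44 in divergent and 2.53 in tandem regions, while the densest region of each class had 6.07, 4.93 and 12.6, in that order of classes.

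**Figure D2:**
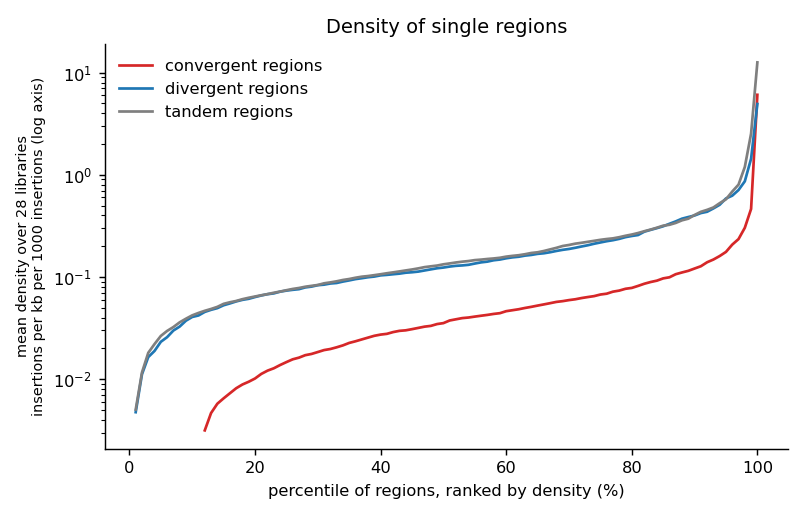
Mean density over the 28 libraries (log axis) of single regions, ranked within each class from the sparsest to the densest, as percentiles. The convergent curve starts where its 11.5% of empty regions end, runs below both other curves up to the 99th percentile and then climbs to 6.07 at STI1/CIN5.

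The 4 libraries with the highest convergent density were grouped after their values were seen, so they cannot overlap the others in it. Convergent density was 0.246 in Flo8, 0.215 in Mss11, 0.180 in Mfg1 and 0.125 in Mit1, against 0.0469 to 0.0998 in the 24 other libraries. The first 3 factors are partners in 1 regulatory complex, and Mit1 is a further regulator of filamentous growth. In these libraries the 3 densest convergent regions held 84.9% (Flo8), 77.3% (Mss11), 86.0% (Mfg1) and 83.7% (Mit1) of all convergent insertions. Without those 3 regions the convergent density was 0.0375 in Flo8, 0.0493 in Mss11, 0.0256 in Mfg1 and 0.0206 in Mit1, against 0.0233 to 0.0947 in the others, and the groups overlapped. Leaving out the 4 libraries gave a mean log2 ratio of -1.70 for convergent over divergent and -1.99 for convergent over tandem density.

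The densest convergent region was STI1/CIN5, with a mean density of 6.07. It lies at chr15:381464-382170 in the coordinates of the deposited expression table, for which no genome build is stated in the labels or files, and is intergenic over its whole 707 bp. STI1 encodes a co-chaperone of Hsp90 and Hsp70, and CIN5 a bZIP transcription factor of the Yap family. The region held 2476 insertions, 22.0% of those in all convergent regions. Its density was 53.8 in Flo8, 43.0 in Mss11, 33.4 in Mfg1, 10.9 in Mit1 and 7.57 in Sok2, the highest of the other 24, against a median over the 28 libraries of 0.754. The Mfg1 library had 963 insertions there, Flo8 703, Mss11 403 and Mit1 110, which made 88.0% of the region's total, while Gcn4 and Rtg1 had none. These 4 libraries were all above the other 24, and these insertions are part of the density by which the 4 were chosen.

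The neighbours of STI1/CIN5 differed. The mean density was 0.0282 in the body of STI1, 6.07 in the region, 0.288 in the body of CIN5 and 1.39 in the 177 bp gap at the start of CIN5. The 1200 bp upstream of the start codon of CIN5, which is the far side of that gene, were also densely hit, with 1313 insertions in Flo8, 1734 in Mfg1, 654 in Mss11, 273 in Sok2 and 85 in Mit1. In raw counts, Mit1 was the library among these 5 with more insertions in the convergent region (110) than upstream of CIN5 (85). The region is 707 bp and the upstream stretch 1200 bp, and these counts were not compared per bp. In the authors' deposited table of p-values, CIN5 had a p at or under 0.001 for 8 factors, STI1 for 1 (Phd1, p = 0.000594) and YOR029W, the next gene beyond CIN5, for 4. RNA of CIN5 was 32.4 RPKM in nitrogen-starved and 20.1 RPKM in rich medium, and that of STI1 312 RPKM in nitrogen-starved and 266 RPKM in rich medium.

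Within STI1/CIN5 the insertions of all 5 libraries peaked in the same 100 bp step, 300 to 400 bp from the end of STI1. In the whole region, 85 of 87 Mit1 positions and 68 of 68 Sok2 positions were also listed for Mfg1. Whether the 5 peaks are independent was not tested. The step at 300 to 400 bp held 271 insertions of Mfg1, 204 of Flo8, 152 of Mss11, 44 of Mit1 and 38 of Sok2. The step next to STI1 held 25, 19, 5, 0 and 1 in the same order of libraries. Flo8 had a further 117 insertions and Mfg1 124 at 600 to 700 bp, next to the end of CIN5.

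**Figure D3:**
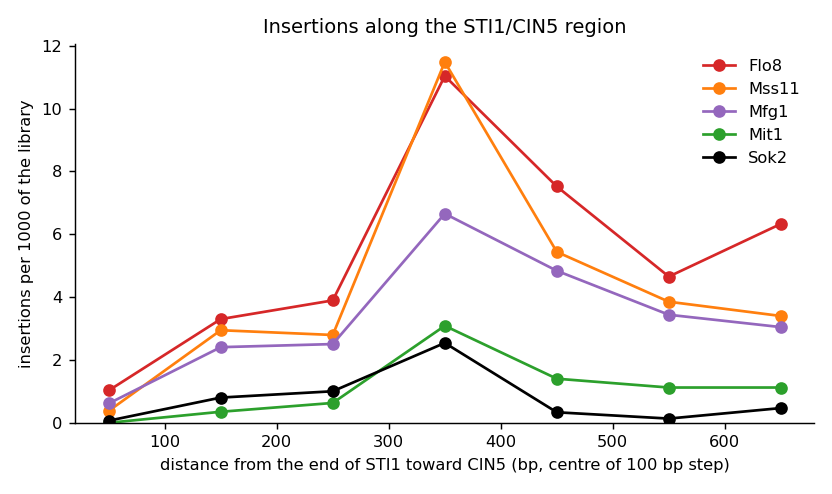
Insertions per 1000 of the library in 100 bp steps along the STI1/CIN5 region, by distance from the end of STI1 toward the end of CIN5; the last few bp are not drawn. Each of the 5 libraries is highest at 300 to 400 bp, where Mss11 and Flo8 had 152 and 204 insertions.

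Positions and read support differed between the libraries at STI1/CIN5. The insertions of Mfg1 fell on 403 positions with a median of 22 reads, those of Flo8 on 339 with 16 reads, those of Mss11 on 230 with 10 reads and those of Mit1 on 87 with 3.5 reads. The library medians were 13, 6, 8 and 8 reads in the same order, so Mit1 alone of these was below its own. Of the Flo8 positions 297 were also listed for Mfg1, and of the Mit1 positions 85. Sok2, Ste12, Tec1 and Nrg1 had 80, 45, 43 and 40 insertions there, each with a median of 1 read, against library medians of 6, 8, 7 and 6 reads. When positions with at least 10 times more reads in another library were left out, 920 insertions remained in Mfg1, 600 in Flo8, 269 in Mss11, 27 in Mit1, 5 in Sok2, 1 in Nrg1 and 0 in Ste12 and Tec1.

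The region of YOL155W-A/HPF1 was second, with a mean density of 2.04 at chr15:25766-27249. HPF1 encodes a cell wall mannoprotein. At 1484 bp it was also the longest convergent region within the limits, and the only convergent region with insertions in all 28 libraries. Its density was 14.0 in Mit1, 10.9 in Flo8, 8.86 in Mss11, 8.17 in Mfg1 and 2.03 in Sok2, with a median of 0.521 and a lowest of 0.261. Mfg1 had 494 insertions, Flo8 300, Mit1 297 and Mss11 174. The same 4 libraries were above the other 24 here too, and these insertions also entered the choice of the 4. After leaving out positions richer elsewhere, 436 remained in Mfg1, 244 in Mit1, 225 in Flo8, 121 in Mss11 and 9 in Sok2.

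These insertions lay beyond the end of HPF1, not in it. The body of HPF1 had a mean density of 0.0348 and 0 insertions in each of the 4 libraries, in a gene of 2967 bp. The 1200 bp upstream of its start codon held 164 insertions in Mfg1, 18 in Flo8, 11 in Mit1 and 7 in Mss11, fewer in each than the convergent region. In the authors' deposited table HPF1 had a p at or under 0.001 for Flo8, Mfg1 and Mit1. Its RNA was 171 RPKM in nitrogen-starved and 106 RPKM in rich medium, a log2 ratio of 0.69 with 1 RPKM added to each.

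MTC2/YKL097C at chr11:263297-263956 (660 bp) had a mean density of 1.53. Its density was 10.6 in Mfg1, 7.61 in Skn7, 4.92 in Flo8 and 3.32 in Mss11, with a median of 0.626 and 3 libraries at 0. The neighbours on the right were denser still. The body of the unnamed ORF YKL097C had 13.4 and the gap beyond it, on the side of the cell wall gene CWP2, had 12.6, against 0.0208 in the body of MTC2. The insertions of Mfg1 lay a median of 99.0 bp from the end of YKL097C, and the start codon of CWP2 is 751 bp from the region. In the authors' deposited table CWP2 was called for 11 factors, YKL097C for 8 and MTC2 for 0.

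Of the 10 densest regions, 7 had an unnamed ORF on at least 1 side. AHA1/YDR215C (chr4:863201-863390, 190 bp) had a mean density of 1.46, with a median of 1.13 and 4 libraries at 0. Its density was 5.46 in Gcn4 (only 4 insertions, in a library of 3857), 3.88 in Dig1 (19 insertions) and 3.88 in Tec1 (14 insertions). AHA1 encodes an activator of the Hsp90 ATPase, and its body had a density of 0.753, with 207 insertions of Dig1. SCM4/YGR050C (chr7:578518-578726, 209 bp) had 0.940, with 8.65 in Hot1, a factor of the osmotic stress response, and a median of 0.416. The body of YGR050C had 1.33 and the gap beyond it 2.88. DON1/YDR274C (chr4:983441-983755, 315 bp) had 0.631, with 2.87 in Hot1 (7 insertions). YJL028W/YJL027C (chr10:393261-393446, 186 bp) had 0.564, with 2.52 in Hms1 (3 insertions). Their unnamed flanks had 1.31 (YDR274C), 0.748 (YJL028W) and 0.275 (YJL027C), so the flanks YDR274C and YJL028W were denser than their regions.

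Among the 10 densest regions, JJJ3/YJR098C, CDC50/OCA4 and SIR4/PCF11 also lay between sparsely hit genes on both sides. JJJ3/YJR098C (chr10:614388-614641, 254 bp) had a mean density of 0.866, against 0.00753 in JJJ3, which encodes a J-protein, and 0.0256 in YJR098C. CDC50/OCA4 (chr3:290480-290711, 232 bp) had 0.505, against 0.0233 in CDC50, which encodes a subunit of a phospholipid flippase, and 0.0214 in OCA4. SIR4/PCF11 (chr4:890920-891197, 278 bp) had 0.475, against 0.0411 in SIR4, a silencing protein that is also the fusion partner in this assay, and 0.0111 in PCF11, a factor of mRNA 3′ end formation. Its highest libraries were Hms1 (2.81, 5 insertions) and Msn4 (2.26, 9 insertions), with a median of 0.226 and 11 libraries at 0. In the authors' deposited table none of these 6 flanking genes had a p at or under 0.001 for any factor.

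**Figure D4:**
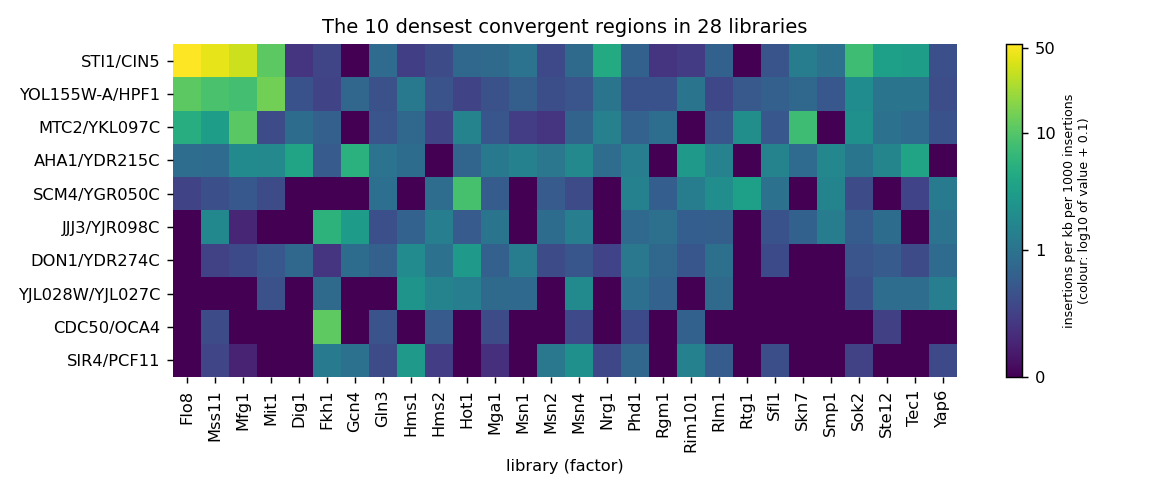
Density (insertions per kb and per 1000 insertions of the library, colour on a log10 scale of the value plus 0.1) of the 10 densest convergent regions, 1 row each, in the 28 libraries, 1 column each. Flo8, Mss11, Mfg1 and Mit1 are high in the top 2 rows, and CDC50/OCA4 has 11.1 in Fkh1 and at most 0.600 elsewhere.

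Enrichment of single factors was read from each pair of a region and a factor. A pair was called when it had at least 10 insertions and at least 4-fold the rate per 1000 insertions of the 27 other libraries pooled. In convergent regions 17 of 27580 pairs (0.0616%) were called, in 12 regions, against 0.286% of pairs in divergent and 0.301% in tandem regions and 0.237% over all 3 classes. Few convergent pairs reached 10 insertions, and of those 69 pairs 24.6% were called, against 11.9% of 680 divergent and 15.0% of 1090 tandem pairs. With 1 library per factor these folds have no test, and partner libraries are among the pooled others. Fkh1 had 5 of the calls, Mfg1 3, Flo8 and Dig1 2 each, and Hot1, Mit1, Mss11, Rlm1 and Ste12 1 each. When the fold was replaced by Fisher's exact test on the same counts (one-sided, adjusted p at or under 0.01 over all pairs), which compares libraries and not conditions, 35 convergent pairs (0.127%) were called, against 0.406% of divergent and 0.486% of tandem pairs and 0.375% over all 3 classes.

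Fkh1, a forkhead factor of cell cycle genes, had the 3 largest folds. At CDC50/OCA4 it had 53 insertions, against 12 in the 27 other libraries, an 81.9-fold higher rate (exact 95% interval 43.2 to 168). The 53 insertions fell on 40 positions with a median of 19 reads, 4 of those positions were listed for another library, and 40 insertions were in the first 100 bp from the end of CDC50. Fkh1 had 2 insertions in the 1200 bp upstream of OCA4, 0 upstream of CDC50, 9 in the body of CDC50 and 1 in that of OCA4. The nearest start codon outside the flanking genes, that of YCR095W-A, was 1470 bp away. The Fkh1 density was 11.1, with Rim101 next at 0.600 and 19 libraries at 0.

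At DAL2/DCG1, between genes of allantoin use, Fkh1 had 12 insertions, against 8 in the others (27.8-fold, 10.5 to 78.5). DAL2, which encodes allantoicase, had 158 RPKM in nitrogen-starved and 10.5 RPKM in rich medium. At YCK3/DSE1, between a vacuolar casein kinase and a gene of daughter cells, Fkh1 had 31 insertions, against 32 in the others (18.0-fold, 10.6 to 30.4). DSE1 had 1004 insertions of Fkh1 in the 1200 bp upstream of its start, on the other side of the gene. Per 1000 insertions of the library, this stretch had 48.9 in Fkh1, 39.1 in Gcn4, 18.9 in Skn7 and 16.9 in Rtg1. JJJ3/YJR098C had 30 insertions of Fkh1, against 57 in the others (9.76-fold, 6.06 to 15.4), of which 24 fell 100 to 200 bp from the end of JJJ3. CRF1/HTB1, beside a corepressor gene and a histone H2B gene, had 15, against 57 (4.88-fold, 2.57 to 8.74).

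The other called pairs were of the mating and filamentation factors, of Flo8 and its partners and of stress factors. PCL2/CDC48, between a cyclin gene and a gene for an AAA ATPase, had 38 insertions of Dig1, against 39 in the others (14.2-fold, 8.83 to 22.8), and 18 of Ste12, against 59 (6.16-fold, 3.42 to 10.6). Dig1 binds and restrains Ste12. The start of PCL2, on the far side of that gene, had 1623 upstream insertions of Dig1, 1652 of Ste12, 1535 of Tec1 and 320 of Skn7. Per 1000 insertions of the library these were 63.0, 87.3, 80.8 and 48.7, in that order. In the convergent region Skn7 had a density of 1.51 (3 insertions) and Tec1 1.22 (7 insertions). SCM4/YGR050C had 14 of Hot1, against 46 (15.4-fold, 7.84 to 28.6). YJL127W-A/MCO6 had 10 of Rlm1, which acts in cell wall integrity signalling, against 67 (8.48-fold, 3.89 to 16.6), and lies 208 bp from the start of PBS2, a kinase gene of the osmotic stress pathway.

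Among Flo8, Mss11, Mfg1 and Mit1, MTC2/YKL097C had a 9.37-fold rate in Mfg1 (7.91 to 11.1). STI1/CIN5 was 8.20-fold in Flo8 (7.51 to 8.96), 5.69-fold in Mss11 (5.10 to 6.34) and 5.63-fold in Mfg1 (5.19 to 6.11). YOL155W-A/HPF1 was 6.44-fold in Mit1 (5.66 to 7.31) and 4.97-fold in Flo8 (4.37 to 5.65). The pool behind each of these folds holds the other libraries of the group.

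Distance to a start codon was compared next, since every convergent region lies beyond a start at some distance. For all 985 regions the nearest start codon was the one at the far end of the shorter flanking gene. The median library density was 0.112 in 224 regions under 500 bp from it (lowest 0.0803, highest 0.342), 0.0774 in 393 regions from 500 to under 1000 bp, 0.0547 in 309 regions from 1000 to under 2000 bp and 0.0353 in 59 regions at 2000 bp or more (lowest 0.00784, highest 0.124). Regions under 1000 bp were denser than those at 2000 bp or more in 26 of 28 libraries, with a mean log2 ratio of 1.41 ± 1.25 (SD, n = 28) and an adjusted p of 1.5e-05 in the permutation test. Of the 10 densest regions 8 were under 1000 bp from a start, as were 62.6% of all 985 regions. Without those 10, the mean log2 ratio was 0.62 (permutation test, adjusted p = 6e-05).

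The single regions showed much less of this. The median density of a region was 0.0420, 0.0346, 0.0319 and 0.0337 in the 4 distance groups, nearest first, and the Spearman correlation of density with distance across the 985 regions was -0.0918, given as a description because regions share libraries. The farthest regions, at 2000 bp or more, had a mean log2 ratio over gene bodies of 0.32 ± 0.82 (SD, n = 28; permutation test, adjusted p = 0.0467), positive in 17 of 28 libraries. Over divergent regions their mean log2 ratio was -2.60 ± 0.79 (SD, n = 28; permutation test, adjusted p = 2e-05), positive in 0 of 28.

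**Figure D5:**
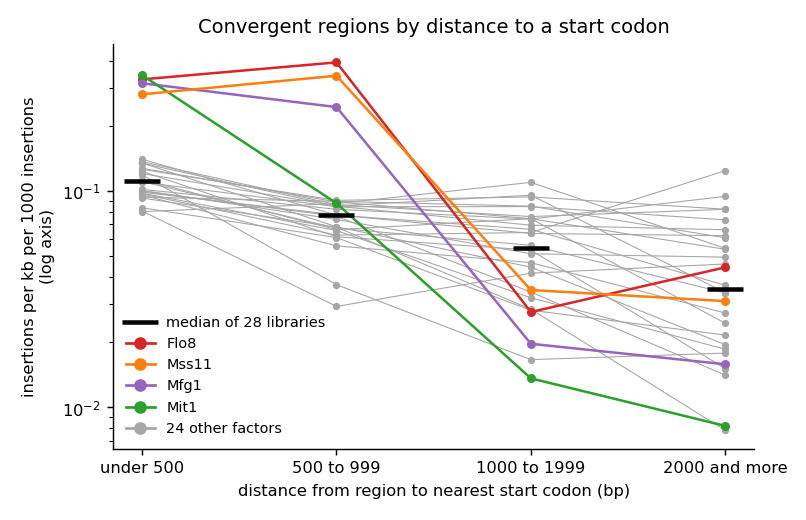
Density of convergent regions (log axis) in each library by the distance from the region to the nearest start codon, with black bars for the median of the 28 libraries. The bars fall through 0.112, 0.0774, 0.0547 and 0.0353, and Flo8, Mss11 and Mfg1 stand above the 24 grey libraries in the nearest 2 groups.

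Density also differed with the neighbours and the length of a region, of which the length was limited by the choice of regions. The 242 convergent regions that touched the 1200 bp upstream of some gene had a median library density of 0.113, against 0.0770 in the 743 others, and were denser in 25 of 28 libraries. STI1/CIN5 is among the 242, and without it their median library density was 0.0979. The 137 regions (13.9%) beside an ORF with no standard name had 0.131, against 0.0712 in the 848 with named genes on both sides, and were denser in 28 of 28. These 137 include 7 of the 10 densest regions. Many such ORFs are short and of doubtful coding status. Regions under 200 bp had 0.0481 (387 regions), those from 200 to under 300 bp 0.0703 (281), those from 300 to under 500 bp 0.0662 (233) and those of 500 bp or more 0.122 (84). Across regions the Spearman correlation of density with the RPKM of the flanking genes was 0.147 in nitrogen-starved and 0.110 in rich medium, as a description.

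Insertions were more frequent in the centre of a region than at its edges, next to the gene ends. With each region cut into 3 equal parts, the centre over the outer parts had a median ratio of 1.29 over libraries (0.791 to 2.38), and a mean log2 ratio of 0.42 ± 0.43 (SD, n = 28), positive in 24 of 28 libraries, with an adjusted p of 3.6e-05 in the permutation test. The same ratio had a median of 1.53 in divergent and 1.69 in tandem regions, and the difference between classes was not tested. Without the 10 densest regions the mean log2 ratio was 0.26.

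Read support was lower in convergent regions. The share of insertions with 1 read was higher than in divergent regions by a mean of 2.93 percentage points (SD 7.01, n = 28), in 21 of 28 libraries, with an adjusted p of 0.0338 in the permutation test. In regions of at least 300 bp the difference was 2.59 points, with an adjusted p of 0.103.

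Within the 24 libraries other than Flo8, Mss11, Mfg1 and Mit1, convergent density was set against 2 library properties. Against the log10 number of insertions, Pearson's r was -0.0094 (permutation p = 0.966, adjusted 0.966), Spearman's rho was 0 (p = 1), and r without Phd1 and Rtg1 was -0.128. Against the number of genes with a deposited p at or under 0.001, r was -0.384 (permutation p = 0.0626, adjusted 0.125) and rho was -0.441 (p = 0.0313, adjusted 0.0626). Without Phd1 and Nrg1, the farthest from the median number of genes, that r was -0.538 (permutation p = 0.0102). Without the 10 densest regions r was -0.490 (permutation p = 0.0151, adjusted 0.0302) over the same 24 libraries. The genes called and the convergent density both come from the insertions of the same library. They are not independent measures, and the permutation test does not allow for this.

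A total of 3 convergent regions adjoin the gene of a factor in the series. RIM101/YHL026C had 3 insertions and a mean density of 0.0622, CRS5/HMS1, between a metallothionein gene and HMS1, had 10 and 0.0473, and SKN7/SET5 had 3 and 0.0408. These densities lay between the median and the upper quartile of the convergent regions (0.0354 and 0.0674). At the length limits, the shortest regions inside, ADE1/KIN3 and MET7/SSP2 (100 bp), had 0 insertions, while RSM28/VPS3 and YLR146W-A/SMD3, just outside at 99 bp, had 0 and 1. The longest inside were YOL155W-A/HPF1 and, at 1433 bp with 5 insertions, ULS1/THI72. Just outside lay ZNF1/IMA5 (1688 bp, 83 insertions) and MGA1/RIE1 (1756 bp), which had 1674 insertions and a mean density of 2.31, above that of YOL155W-A/HPF1.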

How the data were processed

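Per the labels' protocols, 3 restriction digests of the colonies' DNA were closed into circles, amplified outward from Ty5 and sequenced. The authors deposited 1 insertion list per factor with a raw, whole-number count per position, not normalized, read here as sequencing reads, and lines were used as listed. The authors' deposited expression table gives RPKM per feature, and their deposited table of p-values gives 1 p-value per gene and factor; the test behind it, the aligner, filters and genome build are not stated in these sources. No sequence is printed, as no genome of the files' build was used.

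Gaps were built from the 6932 features of the expression table, written from 1. The strand came from the systematic name for 6444 features, and gaps beside the 488 others or beside overlapping genes were not classified. Symbols of 5817 features came from the RefSeq table. Ratios within a library had 0.5 insertions added and were tested by 100000 two-sided sign flips over libraries, with Benjamini-Hochberg adjustment over 6 tests; correlations were adjusted over 2 relations. The p-values measure the spread between libraries of different factors. Intervals at 95% are exact. Regions named were the 10 densest, up to 15 called pairs with the largest fold, the 3 longest without insertions, those at the length limits and those beside a factor's gene. Regions, lists and rules were chosen with earlier results of these data known. Alternatives changed the counting of repeated, 1-read and shared positions, the distance and length limits, the features that bound gaps, the regions and libraries left out, and the call rule. The counting steps were tested on simulated data. Python 3.11.15, numpy 2.4.6, scipy 1.17.1 and pandas 2.3.3 were used.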

Additional observations from a re-analysis of the deposited data

How the results depend on the processing

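The mean log2 ratios kept their direction and side of the 0.05 threshold under every alternative run, with ranges of -2.60 to -1.22 for convergent over divergent, -2.91 to -1.53 for convergent over tandem and 0.32 to 1.81 for convergent over gene body density, 0.26 to 0.53 for the centre over the outer parts and 0.62 to 1.80 for near over far from a start codon. The share of 1-read insertions lost its call in regions of at least 300 bp (2.59 points). Over all 28 libraries, correlations of convergent density were 0.276 with library size and 0.305 with genes called. They became -0.222 and -0.584 (permutation test, adjusted p = 0.00216) without the 10 densest regions, and -0.0094 and -0.384 without Flo8, Mss11, Mfg1 and Mit1, which hold most insertions in the densest 3. Genes called and convergent density come from the same insertions, which the permutation test does not allow for. The 17 called pairs became 9 at 8-fold, 11 at 20 insertions and 35 with Fisher's exact test (one-sided, adjusted p at or under 0.01, which compares libraries), and stayed at 12 to 17 under the other 7 alternatives. Alternatives without single regions or without the 4 libraries, those on start distance, on unnamed or RefSeq-absent ORFs and on same-strand overlapping genes were chosen after seeing the data.

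Libraries could not be paired with each other, because each factor had 1 library and its replicate number is only a name. The tested ratios and shares compared parts of the DNA within each library. Depth limits single regions most: with a median of 3 insertions over all libraries, most convergent regions cannot be compared between factors.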

Other observations

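Besides the densest regions, some convergent regions were hit by most factors. Mean density in those named below ran from 0.177 (HSP150/CIS3) to 0.437 (SND3/IML3). These values were below those of the densest regions and above the upper quartile of the convergent regions (0.0674). A total of 15 of the 985 convergent regions had insertions in 20 or more libraries. The same count was not made for divergent or tandem regions. The regions named here were chosen after their values were seen. SND3/IML3 (568 bp, 87 insertions) and YHR095W/HXT5 (1290 bp, 116 insertions), beside a hexose transporter gene, were hit in 25 libraries each. BER1/YLR412C-A (1074 bp, 161 insertions) and PEP8/YJL052C-A (846 bp, 78 insertions) were hit in 23 each. HSP150/CIS3, between genes of cell wall proteins of the PIR family, was hit in 21 libraries with 31 insertions. AHP1/CCW12, beside the gene of an abundant cell wall mannoprotein, was hit in 20 libraries with 56 insertions. CIS3 had 3629 RPKM in nitrogen-starved and 1464 RPKM in rich medium, and CCW12 had 45886 RPKM in nitrogen-starved and 44579 RPKM in rich medium, each with 1 library per medium.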
